A study of Mus with 3 samples.

Results

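The interferon-induced GTPases followed here were 10 mouse genes of 2 protein families, and their messenger RNA was read in the hippocampus of mice that had or had not received an amyloid peptide. The genes were Tgtp1, Tgtp2, Iigp1, Irgm1, Irgm2 and Igtp of the immunity-related GTPases, and Gbp2, Gbp3, Gbp6 and Gbp7 of the guanylate-binding proteins. They were found as the probes that carry 1 of these gene names in the array files. This gave 13 probes at 22 spots for 9 of the 10 genes, out of 39429 gene probes at 43020 spots on each array. No probe carried the name Gbp7.

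The samples were pools of hippocampal RNA from male Slc:ddY mice, an outbred stock, aged 6 weeks. Oral dosing ran for 15 days, with distilled water both in normal controls (NCO) and in the peptide controls (ACO). The oil group (ASO) was dosed with shochu oil, from sweet potato spirit, at 2000 mg/kg/day. On day 8 every mouse was given 5 µL of fluid. In ACO and ASO it carried 10 nmol of the amyloid fragment Aβ25-35 into the cerebral ventricles, and in NCO it was distilled water by a route the labels do not name. Tissue was taken after a Y-maze test on day 16. Each group was 10 mice, joined as 5 sets of 2 mice and then into 1 pool on 1 array. With 3 arrays and no replicates, no test between groups could be run and the number of arrays limits the precision of every value. A difference in a bulk sample can come from fewer cells of a type or from less RNA per cell, and these cannot be told apart.

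Interferons, chiefly interferon gamma, switch on both families through transcription factors that include Irf1. The proteins are part of cell-autonomous defence, in which an infected cell attacks the membrane vacuole that shelters an intracellular parasite or bacterium. Among the immunity-related GTPases, Tgtp1, Tgtp2 and Iigp1 are effectors that load onto such vacuoles, while Irgm1, Irgm2 and Igtp sit on the cell's own membranes and restrain the effectors. Guanylate-binding proteins are larger GTPases that assemble on vacuoles and on bacteria, and the autophagy conjugation machinery helps to direct both families. In the brain, microglia, astrocytes and endothelium can express them after exposure to interferon.

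All values below are intensities corrected for background and scaled to the same 75th percentile on each array, called signal. A difference is the log2 value of the first named array minus that of the second, after 50 was added to each signal, so a dim probe's difference is understated. A probe counted as well above background when the scanner program's signal to noise score reached 2.6. The spot SD beside a difference is the median SD over spots, taken from probes printed at 10 spots with a similar level. It holds spot error only and says nothing of mice or pools. Between 50.9% and 53.7% of probes were well above background on the 3 arrays, and all 7 hippocampal marker genes were so on each. Probes for a labelling control transcript were brighter on ASO, by a median of 0.48 against ACO over 5 probes and 0.32 against NCO over 6. They differed by -0.14 between ACO and NCO over 5. No value below was adjusted to these probes.

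On these arrays 7 members had a probe well above background on all 3 arrays: Tgtp2, Irgm1, Irgm2, Igtp, Gbp2, Gbp3 and the probe named Gbp6. ACO stood above NCO by a median of 0.19 over these 7 members, against a median of 0.005 over all 13317 genes measured on both arrays. Tgtp2 had the greatest difference, 1.56-fold, by its brighter probe, while its other probe was not well above background on any array. Between ASO and ACO the members separated, with Tgtp2 and Irgm2 lower on ASO, Gbp3 higher, and Gbp2 and Igtp within 1 spot SD of their ACO level.

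**Figure D1:**
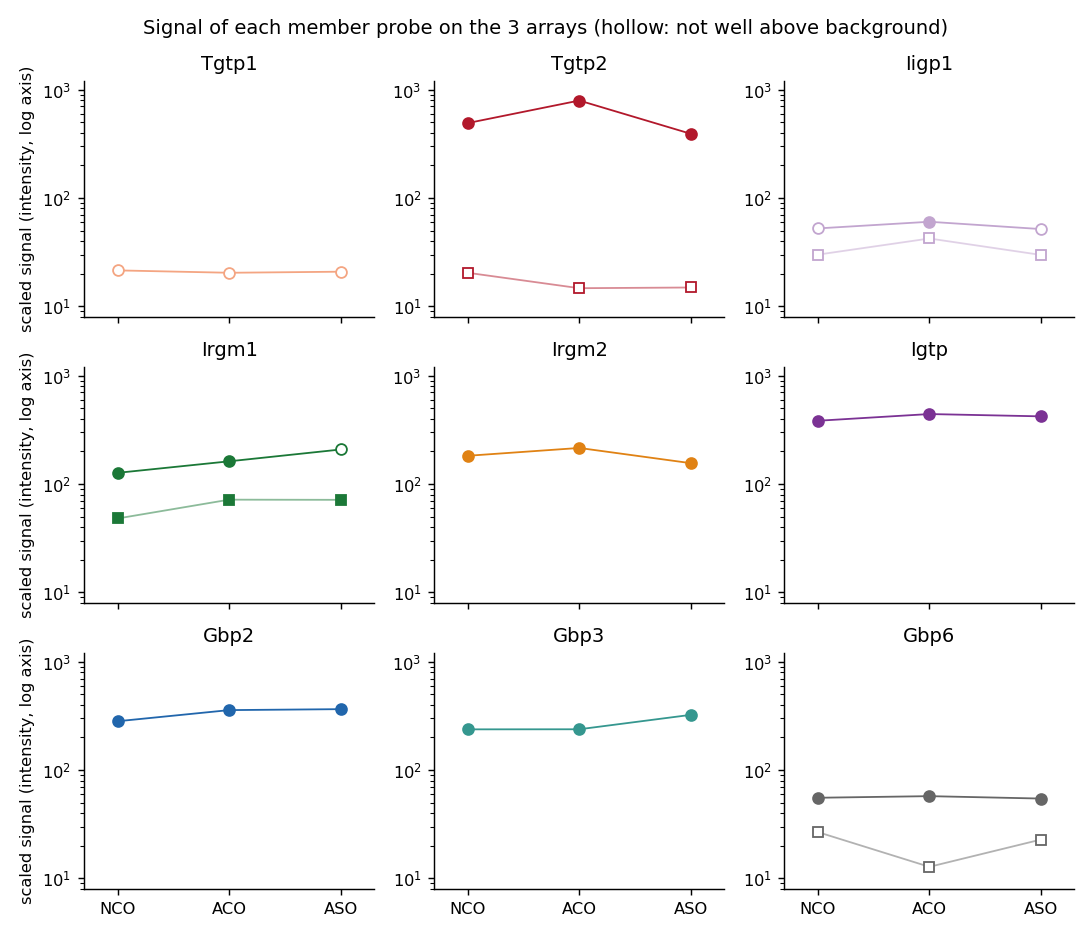
Signal of the 13 member probes on the NCO, ACO and ASO arrays, on a log axis, with 1 panel per gene name; circles are the brighter probe, squares the dimmer, and hollow points are not well above background. Tgtp2 is highest on ACO at 793 and lowest on ASO at 391, while both Tgtp1 and the second Tgtp2 probe lie near 20 or below.

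Tgtp2 encodes a T-cell specific GTPase, also called Irgb6, that is among the first of the effectors to load onto a parasite's vacuole. Its probe A_55_P2062246 read 491 on NCO, 793 on ACO and 391 on ASO in signal. ACO was thus the highest array and ASO the lowest. The difference of ACO from NCO was 0.64 (spot SD 0.09), and 0.128% of all genes differed upward by at least as much. The difference of ASO from ACO was -0.94 (spot SD 0.09), a 1.91-fold lower level, and 0.103% of genes were as low or lower. ASO also lay below NCO, by -0.30 (spot SD 0.10). All 3 arrays therefore lay more than 3 spot SDs from each other in this probe. The spots around it differed by -0.08, 0.05 and 0.00 in these comparisons. The same probe is listed in the authors' deposited table at 443.8, 745.1 and 333.8, with the same order of arrays; that table was made from the same scans.

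The other probes for this gene pair did not show it. Probe A_55_P1989225, also named Tgtp2, had signals of 20.4, 14.7 and 14.9 on NCO, ACO and ASO, and the Tgtp1 probe A_51_P478722 had 21.5, 20.4 and 20.9. All of these were not well above background. Each of the 3 probes is annotated to the transcripts of both Tgtp1 and Tgtp2, which are near-identical copies. The bright signal therefore cannot be assigned to 1 copy, and it rests on 1 spot per array. The other probes for the same transcripts read near background, and whether the bright probe reports either gene was not tested.

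Iigp1, also called Irga6, is the effector best known for oligomerising on vacuole membranes. Its probe A_55_P2410304 had signals of 52.3, 60.3 and 51.6 on NCO, ACO and ASO, and it passed the background limit on ACO alone. By the signals as read, ACO was 1.08-fold higher than NCO and 1.09-fold higher than ASO. The differences of ACO from NCO and of ASO from ACO, 0.11 (spot SD 0.11) and -0.12 (spot SD 0.12), were about the size of the spot error. The second probe, at 30.0, 42.2 and 29.8, was not well above background on any array.

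Of the restraining members, Igtp was measured most precisely, because its probe is printed at 10 spots. Igtp, or Irgm3, resides on the endoplasmic reticulum. Over the 10 spots the signal ran from 318 through a median of 383 to 511 on NCO, from 374 through 417 to 575 on ACO, and from 331 through 423 to 530 on ASO. The spots overlapped widely between arrays, but spot by spot ACO was the higher in 10 of 10. The difference of ACO from NCO was 0.18 ± 0.10 (SD over 10 spots of 1 array pair), with single spots from 0.05 to 0.36. ASO lay above NCO in 9 of 10 spots, by 0.12 ± 0.12. ASO against ACO was -0.06 ± 0.10, with 6 spots lower and 4 higher, so these 2 arrays did not separate by spot. Under median scaling ASO differed by -0.17 from ACO and by 0.04 from NCO, but the medians of all genes were then -0.114 and -0.093. Relative to the median of all genes, Igtp on ASO stood at -0.05 against ACO and 0.13 against NCO under both scalings. By mean difference NCO lay below ASO and ASO below ACO. ASO was within 1 spot SD of ACO and about 1 spot SD from NCO. Its place moved with the scaling, but its place relative to all genes did not.

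**Figure D2:**
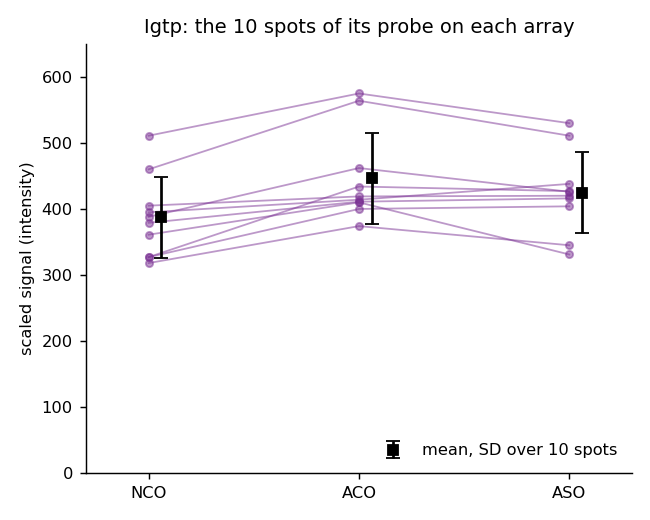
Signal of Igtp at each of its 10 spots on the NCO, ACO and ASO arrays, with lines joining the same spot position and black squares giving the mean and SD over spots. All 10 lines go up from NCO to ACO, while from ACO to ASO 6 go down and 4 go up.

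Irgm2, which lies on the Golgi, had signals of 182, 215 and 156 on NCO, ACO and ASO, the same order of arrays as Tgtp2. The difference of ACO from NCO was 0.19 (spot SD 0.10) and that of ASO from ACO was -0.37 (spot SD 0.10). ASO was also below NCO, by -0.17 (spot SD 0.13). NCO was thus within 2 spot SDs of both other arrays, while ACO and ASO were further apart.

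Irgm1, a regulator that is also linked to autophagy, had 2 probes that gave the same direction against NCO but placed ASO differently against ACO. Probe A_55_P1981479 had signals of 48.1, 71.7 and 71.4 on NCO, ACO and ASO. It differed by 0.31 (spot SD 0.12) between ACO and NCO and by 0.31 (spot SD 0.13) between ASO and NCO, and it was level between ASO and ACO. The brighter probe A_51_P262171 had 127, 162 and 208. It was higher on ACO than on NCO by 0.26 (spot SD 0.10). On ASO its score was 1.75, below the limit, although its foreground intensity of 234 stood far above its local background of 40. Taken without that limit, ASO would lie above ACO by 0.29. Both Irgm1 probes were higher on ACO and on ASO than on NCO. Without background correction the difference of ACO from NCO was 0.15 by the brighter probe, and with no added constant 0.35. The difference of ASO from NCO was 0.10 and 0.57 in those settings, by the dimmer probe. These values therefore do not set ASO against ACO.

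Among the guanylate-binding proteins, Gbp2 is a prenylated GTPase recruited to vacuoles and is widely used as a marker of reactive astrocytes. Its signal was 282, 358 and 365 on NCO, ACO and ASO. ACO and ASO thus shared a higher level than NCO, by 0.30 (spot SD 0.09) for ACO and 0.32 (spot SD 0.10) for ASO. They differed from each other by 0.03, or by -0.08 when arrays were scaled to the median.

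Gbp3, a family member encoded close to it, had a signal of 238 on both NCO and ACO and 323 on ASO. NCO and ACO were level, and ASO was above both, by 0.37 over ACO (spot SD 0.10) and 0.38 over NCO (spot SD 0.11). The labelling control probes were also brighter on ASO, by medians of 0.48 over ACO and 0.32 over NCO. Gbp2 and Gbp3 are separated by a single protein-coding gene, Gbp2b, in the RefSeq order of genes, yet on ACO Gbp2 was above NCO and Gbp3 was not.

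The name Gbp6 needs care. Its brighter probe, A_51_P463846, carries the accession NM_145545, which the RefSeq table assigns to Gbp7. The signal was 55.5, 57.4 and 54.6 on NCO, ACO and ASO, with all 3 differences between -0.04 and 0.03 and inside a spot SD of 0.11 to 0.12. Its score on ASO was 2.6, right at the limit. The second probe named Gbp6 had 26.8, 12.8 and 22.8 and was not well above background. Another 2 probes, which the files call Mpa2l, belong to Gbp6 by accession. The brighter, at 113, 92.6 and 97.2, differed by -0.19 between ACO and NCO and by -0.15 between ASO and NCO, and the dimmer was not well above background. By either naming, the Gbp6 and Gbp7 probes did not share the higher ACO level of Gbp2.

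**Figure D3:**
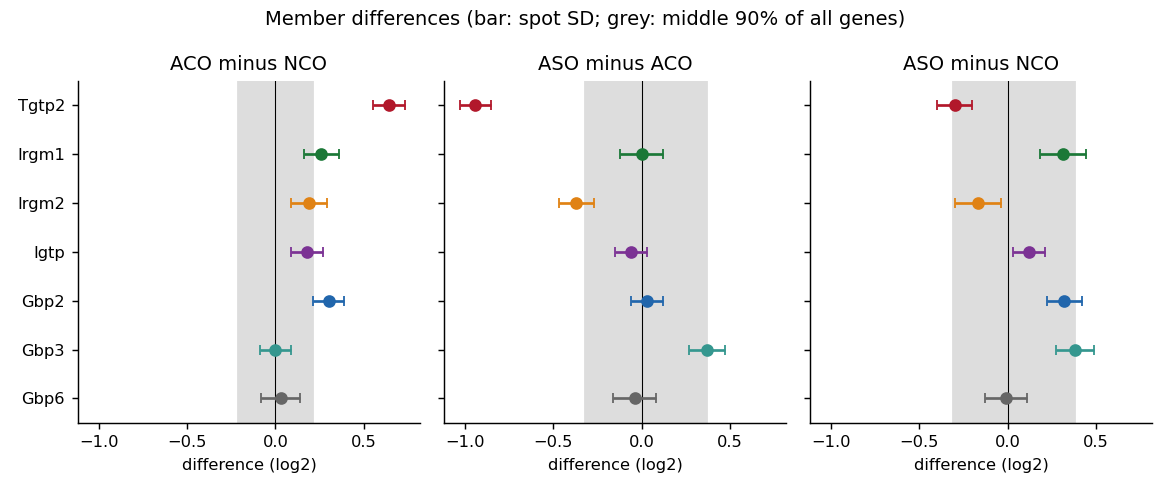
Log2 differences of the 7 measured members in the 3 comparisons, with horizontal bars of 1 spot SD either side and a grey band for the middle 90% of all genes. Tgtp2 lies outside the band at 0.64 in ACO minus NCO and at -0.94 in ASO minus ACO, and Gbp2 at 0.30 and Irgm1 at 0.26 also lie above it in the former. In ASO minus ACO Irgm2 lies below it at -0.37 and Gbp3 lies at its upper edge at 0.37.

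Setting ACO against NCO addressed the effect of the peptide. The route of the NCO water is not named, so an effect of injection into the ventricles cannot be told apart. Tgtp2 and Gbp2, 2 of the 7 measured members, were at least 1.2-fold higher on ACO, where 2.76% of all genes were. Irgm1, taken here by its brighter probe, fell just short at 0.26. Its dimmer probe, at 0.31, was past 1.2-fold. In 6 of 12 other settings Irgm1 passed as well, which gave 3 members, and without background correction Gbp2, at 0.25, fell short too. None was at least 1.2-fold lower, against 2.72% of genes. Gbp3 and Gbp6 were level, at 0.00 and 0.03, and did not keep their sign in all settings. The other 5 lay between 0.18 for Igtp and 0.64 for Tgtp2. Tgtp2 was the 1 member at least 1.5-fold higher, where 0.203% of genes were. Scaling to the median in place of the 75th percentile changed the balance of genes past 1.2-fold from 50.4% higher to 61.1%.

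Setting ASO against ACO addressed the effect of the oil where the peptide was present. Gbp3 was the 1 member at least 1.2-fold higher on ASO, where 10.1% of all genes were, and Tgtp2 and Irgm2 were at least 1.2-fold lower, where 9.26% of genes were. The count of higher members is close to that background. The member median was -0.04 against -0.013 for all 13571 genes. Above 0 were 2 members and below it 5, where 47.1% of all genes were above 0. No member was 1.5-fold higher, against 1.64% of genes. Under median scaling the balance of genes past 1.2-fold moved from 52.2% higher to 19.1%, and the median of all genes from -0.013 to -0.114. Relative to that median, Tgtp2 stood at -0.92 under the first scaling and -0.93 under the second, and Irgm2 at -0.35 and -0.34.

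Setting ASO against NCO addressed the distance of the oil group from mice given neither agent. Gbp2, Gbp3 and Irgm1 were at least 1.2-fold higher on ASO, where 10.3% of all genes were. Irgm1 was taken here by its dimmer probe, which was past 1.2-fold on ACO as well. Tgtp2 was at least 1.2-fold lower, where 8.31% of genes were. The member median was 0.12 against -0.014 over 13460 genes. Above 0 were 4 members and below it 3, where 47.1% of all genes were above 0. No member was at least 1.5-fold higher, against 1.65% of genes. With median scaling 26.3% of genes past 1.2-fold were higher, in place of 55.5%, and of the 3 higher members Gbp3 alone stayed past 1.2-fold, at 0.30. The 3 comparisons share arrays, so a low or high ACO value enters both the first and the second with opposite sign.

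**Figure D4:**
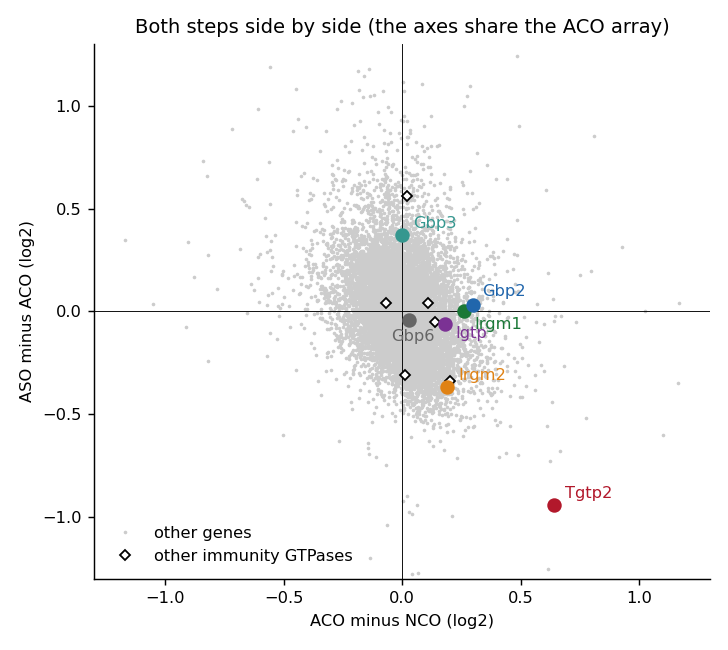
Each point is a gene, with its log2 difference of ACO from NCO on the horizontal axis and of ASO from ACO on the vertical axis; coloured circles are the members, diamonds other immunity GTPases and grey dots other genes. Tgtp2 lies far to the lower right at 0.64 and -0.94, and Gbp3 lies straight above the origin at 0.00 and 0.37. Irgm1 is placed by its brighter probe on the horizontal axis and by its dimmer probe on the vertical axis. The shared ACO array ties the axes to each other.

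Several members are neighbours in the genome. In the RefSeq order of protein-coding genes Igtp and Irgm2 are adjacent, Tgtp1 and Tgtp2 are separated by 1 gene, and Irgm1 precedes Tgtp1 by 4 genes. The adjacent pair had like differences on ACO, at 0.18 for Igtp and 0.19 for Irgm2, and unlike ones between ASO and ACO, at -0.06 and -0.37. No replicate exists to check that gap between the 2 genes.

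Of 19 other GTPases of the same defence, which include the Mx proteins and the giant GTPase Gvin1, 6 were measured between ACO and NCO and none was 1.2-fold apart, with a median of 0.06. Between ASO and ACO 8 were measured, 2 of them at least 1.2-fold higher and 2 lower, with a median of 0.04. For this and the following lists, 10.1% of all genes were at least 1.2-fold higher and 9.26% lower between ASO and ACO. Counts of 1 or 2 are not far from that background. Between ACO and NCO the shares were 2.76% higher and 2.72% lower, so finding none in a list this small is near background as well. The 4 brightest were Irgq, 9930111J21Rik1, Gvin1 and Gbp4. Irgq, a family member outside the interferon-induced group, was level at 1488 on NCO, 1415 on ACO and 1453 on ASO. 9930111J21Rik1, which lies between Irgm1 and Tgtp1, had signals of 196, 199 and 317, so it was higher on ASO by 0.56 against ACO. Gvin1, at 194, 229 and 171, and Gbp4, at 178, 179 and 135, were lower on ASO than on ACO, by -0.34 and -0.31.

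The interferons themselves were near or below the limit of measurement. Of 8 ligand genes with a probe, 7 were not well above background on any array, Ifng among them, with signals of 26.8, 20.4 and 25.8. The remaining gene, Ifnl3, passed on ACO alone.

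All 7 receptor and kinase genes were measured. None was 1.2-fold apart between ACO and NCO, with a median of 0.06. Between ASO and ACO 1 was higher and 2 lower. Ifngr1, the ligand-binding chain of the interferon gamma receptor, had a signal of 564, 626 and 804 on NCO, ACO and ASO and was higher on ASO than on ACO by 0.34. Ifngr2, the signalling chain, had 3779, 3781 and 3082 and was lower by -0.29. The 2 chains of 1 receptor thus differed in opposite directions. Jak1, at 5917, 6167 and 5591, and Ifnar2, a chain of the type I receptor, at 1078, 1299 and 1074, were each highest on ACO.

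Of 13 transcription factor genes 8 were measured between ACO and NCO, and none was 1.2-fold apart. Between ASO and ACO 3 of 9 were higher and none lower. Irf8, a factor of microglia and other myeloid cells, had 338 on NCO, 384 on ACO and 551 on ASO, a difference of 0.47 from ACO. Irf1, the factor most directly tied to these GTPases, had 677, 719 and 789 and differed by 0.13. Irf3, at 2854, 3069 and 3195, and Stat3, at 2780, 2814 and 2866, differed little.

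Of 10 inhibitor genes of the pathway 9 were measured. None was 1.2-fold apart between ACO and NCO, and 2 were higher on ASO than on ACO, with a median of 0.03. The brightest were Pias1, Pias2, Ptpn2 and Ptpn1, and their differences between ASO and ACO ran from -0.26 for Pias2 to 0.02 for Pias1 and Ptpn1. All 11 autophagy partner genes were measured, with medians of -0.06 for ACO against NCO and -0.08 for ASO against ACO. Gabarapl1, a ubiquitin-like protein of autophagosomes, was the 1 gene at least 1.2-fold lower on ACO. Its probe was partly saturated on NCO, so no size is given.

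Markers of cells that can express these GTPases also differed between arrays. Of 8 microglial markers 5 exceeded their ACO level by at least 1.2-fold on ASO, where 10.1% of all genes did, and 1 was lower; their signals summed to 31324, 26918 and 32521 on NCO, ACO and ASO. The lower sum on ACO was set mainly by Itgam, at 8531, 3764 and 4795, and the list's median difference of ACO from NCO was 0.00. All 6 astrocyte markers were above 0 for ASO against ACO (47.1% of all genes), 2 of them past 1.2-fold. Their summed signal was 19580, 19334 and 23560. Gfap, the astrocyte filament, differed by 0.84 there, while the astrocyte-linked Gbp2 differed by 0.03. Endothelial markers had a median of -0.12 for ACO against NCO and 0.21 for ASO against ACO.

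Choroid plexus markers, like Tgtp2 and Irgm2, were mostly highest on ACO. Unlike them, 6 of 7 marker genes stood above NCO on ASO (47.1% of all genes), with a list median of 0.13. These markers were at least 1.2-fold higher on ACO than on NCO in 6 of 7 genes (2.76% of all genes) and fell below ACO by at least 1.2-fold on ASO in 3 (9.26% of all genes). Their summed signal of 22849, 18453 and 18817 was set by Ttr, which went the other way. The 4 measured blood markers did not share 1 pattern. The neutrophil gene S100a9 had 71.5, 143 and 70.4, highest on ACO. Hbb-b2, at 501, 437 and 875, and Alas2, at 192, 149 and 175, were lowest on ACO, and Hba-a1 was nearly level at 9375, 9577 and 10030. Of 8 T and NK cell markers 3 were measured, with a summed signal of 793, 797 and 933. That sum was set mainly by Nkg7, at 459, 487 and 480. Between ASO and ACO 2 of the 3 were at least 1.2-fold higher (10.1% of all genes), with a median of 0.40. Cd3d, Cd8a, Gzmb, Klrb1c and Ncr1 were not well above background on any array. The part of these cells in the GTPase differences was not tested.

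By distance over the 2 differences, with 3 arrays in all, the genes most like the median member pattern of 0.19 and -0.04 were Parn, Zbtb11os1, Lst1, Dgkz and Lrrc4c, all within 0.009 of it. Such a pattern was common, since 485 of 9893 genes lay within 0.1 of it.

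**Figure D5:**
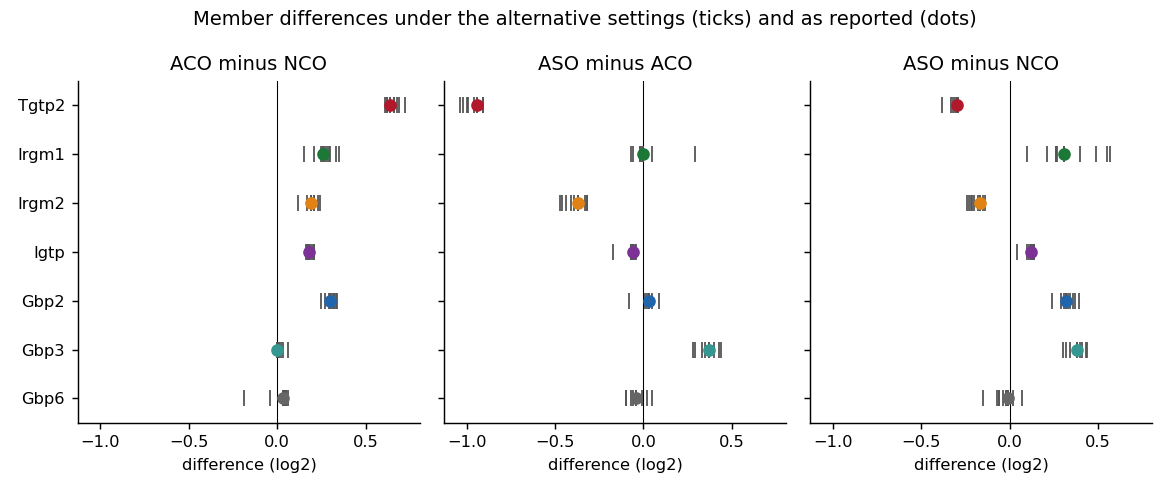
Log2 differences of the 7 measured members as reported (dots) and under up to 12 other processing settings (ticks), for the 3 comparisons. Tgtp2 stays between 0.61 and 0.72 in ACO minus NCO and between -1.04 and -0.91 in ASO minus ACO. Irgm1 spreads from -0.07 to 0.29 in ASO minus ACO. The 0.29 is from its brighter probe, which entered there only with no filter on signal to noise.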

How the data were processed

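The authors scanned the arrays at 532 nm on a GenePix 4000B and read spot foreground and local background intensities with GenePix Pro 6.1.0.4, unnormalized, per the file headers. That program also gave the deposited percent of saturated pixels, signal to noise score and spot marks. The submitters' processing notes also name Agilent Feature Extraction. The authors' deposited value table lists intensities of 475 probes, with column medians of 117, 97.4 and 113 on NCO, ACO and ASO. A straight line of each foreground median gave its columns, with slopes of 1, 0.917 and 0.893, so it is linear in signal. Why the slopes differ is unknown.

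Foreground medians were corrected with limma 3.58.1 in R 4.3.3 (normexp, saddle) over all spots, and control spots were left out. Arrays were scaled to 1 common 75th percentile by 1.06, 0.95 and 0.992, and spots of 1 probe were averaged as log2 values. A probe entered a comparison when its score was at least 2.6 on both arrays, it was not saturated on both (50% of pixels) and no spot was marked bad. A gene was its brightest entered probe. Members were named by the files. Other probes were named through a RefSeq table of assembly GRCm38.p6, 26581 by accession, 2597 by symbol and 490 by synonym, while 7957 had no name and 1804 only that of the file. Surroundings of a spot were its 60 nearest measured spots. The steps were tested on simulated data; later steps ran in Python 3.11.15.

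Folds of 1.2 and 1.5 were used to count. All members were named, with up to 4 of the brightest genes of each other list and Ifng, Ifngr1, Ifngr2, Irf1 and Irf8. A further gene under this rule is not reported here, and any other gene was picked once its values were known. The members and lists were chosen with earlier results of these data known. The labels' protocol names an injected group that no sample carries, and ASO was taken as that group from the design text.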

Additional observations from a re-analysis of the deposited data

How the results depend on the processing

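With 12 other settings and, for Tgtp2, the authors' table tried 1 at a time, 140 median and count values and 234 single-member values stayed close to the reported ones, 15 single-member values moved, and none with at least a 1.2-fold difference changed sign. Without background correction 1 member, in place of 2, was at least 1.2-fold higher on ACO than on NCO, and 6 of 12 settings gave 3. With no filter on signal to noise 2 members, in place of 1, exceeded ACO by at least 1.2-fold on ASO. The added member was Irgm1, by its brighter probe in place of the dimmer. In that setting the member median of ASO against NCO was -0.01 over 9 genes. With median scaling 1 member, in place of 3, exceeded NCO by at least 1.2-fold on ASO. Under RefSeq names Gbp6 stood at -0.19 for ACO against NCO. A signal to noise limit of 5 left no value for Irgm1 or Gbp6. The authors' deposited table, added after seeing the data and counted above, gave Tgtp2 at 0.75, -1.16 and -0.41.

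Counts over all genes changed more. For ACO against NCO 368 genes were at least 1.2-fold higher and 362 lower; a constant of 10 gave 555 higher, no constant 628 and 607, and no filter 665 and 1010. The 27 genes at least 1.5-fold higher became 16 without background correction and 49 with no constant. Median scaling turned 1373 higher and 1256 lower genes for ASO against ACO into 708 and 2993, and 1393 and 1119 for ASO against NCO into 873 and 2446. The 222 genes at least 1.5-fold higher in each became 113 in the former and 144 in the latter, and 367 and 347 with no constant. Genes at least 1.5-fold lower were not counted. No paired analysis was possible because each group had 1 array.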

Other observations

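Some related GTPases crossed the background limit on part of the arrays, named after their values were seen. Mx1, an interferon-induced dynamin-like GTPase against viruses, had signals of 37.4, 31.8 and 65.5 on NCO, ACO and ASO and passed the limit on ASO alone. Mx2 had 73.6, 113 and 174, was not well above background on NCO, and differed by 0.46 between ASO and ACO. Gm4951 had 32.1, 40.3 and 59.5 and passed on ASO alone, and Gm12250, also called Irgb10, had 35.3, 53.6 and 54.6 and passed on ACO alone. Gbp9 had 53.4, 35.6 and 32.8 and passed on NCO alone. Ptpn6, a phosphatase of blood-derived cells and microglia that dampens cytokine signals, had 110, 107 and 183, a difference of 0.57 between ASO and ACO.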
